A study of Homo sapiens with 9 samples.

Results

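The genes described here are those of heme synthesis: *ALAS1*, *ALAS2*, *ALAD*, *UROS*, *UROD*, *CPOX*, *PPOX* and *FECH*, which encode enzymes of the pathway, and *SLC25A37*, which encodes the mitochondrial iron importer mitoferrin 1. They were chosen by gene symbol, by a rule that uses no measured value but was set with earlier results of these data known, and all 9 of 9 were present among the 60662 genes of the count table, each as a single entry. The cells were SET2, a megakaryoblastic leukemia line with mutant *JAK2*, which the labels class as AML after a myeloproliferative neoplasm, and their RNA was sequenced in bulk. The groups were untreated WT cells (n = 3 libraries) and 2 untreated clones with KO of *DYRK1A*, named 11H1 (n = 3) and 14B5 (n = 3). *DYRK1A* encodes a kinase, and the study asked what its loss does to the transcriptome of these cells. Each clone descends from 1 cell, sorted after the Cas9 ribonucleoprotein had been delivered by nucleofection, and was kept because it carried out-of-frame indels. No clone grown from an unedited cell was analysed here, so an effect of the edit cannot be told apart from a property of the founder cell. The libraries of a clone are replicates of that clone only, and nothing in the labels says whether they came from separate cultures. When a clone is compared with WT or with the other clone, the p values therefore measure the spread between these libraries, which may be technical. When both clones are pooled against WT, that spread also holds the difference between the clones. The pooled tests treat 6 libraries of 2 clones as if they were replicates of KO.

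Heme is made in steps that begin and end inside the mitochondrion. An aminolevulinate synthase, ALAS1 in most cells and ALAS2 in erythroid cells, joins glycine to succinyl-CoA, which is the step that limits the rate. ALAD condenses the product in the cytosol, UROS closes the tetrapyrrole ring and UROD trims its side chains. At the mitochondrion again, CPOX makes protoporphyrinogen, PPOX oxidises it to protoporphyrin, and FECH inserts the iron that mitoferrin 1 brings in. Erythroid cells make most of the heme of the body, and the megakaryocyte lineage shares with them a progenitor and the transcription factor GATA1.

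Levels are given as CPM, expected counts divided by library size, with sizes scaled by the TMM method so that libraries can be compared. Tests are edgeR quasi-likelihood tests over all genes that passed a filter on low counts, and p values were adjusted by the Benjamini-Hochberg method, with a threshold of 0.05. Differences are log2 fold changes (log2FC) with their SE. Library totals ran from 32347779 to 60272245 expected counts. The lowest count of any of the 9 genes in any library was 995, so all passed the filter in every comparison. The share of counts from mitochondrially encoded genes ranged in WT from 3.54% to 6.03%, in 11H1 from 7.23% to 7.39% and in 14B5 from 3.30% to 3.92%, and its part in the results below was not tested. *DYRK1A* RNA was at 196 to 219 CPM in WT and 174 to 192 CPM in KO (log2FC −0.13, SE 0.06, edgeR adjusted p = 0.126). It was past the threshold in 14B5 versus WT (−0.17, edgeR adjusted p = 0.0278) and not in 11H1 (−0.09, adjusted p = 0.131), and the pooled difference passed in a fit with WT, 11H1 and 14B5 as 3 groups (adjusted p = 0.0251). These counts do not show the reading frame. In bulk RNA, fewer cells of a type and less RNA per cell cannot be told apart.

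Since *ALAS1*, *CPOX* and *FECH* were the genes that moved the same way in both clones, and *ALAS2* the erythroid isoform that was past the threshold in neither, the stretches before their transcription starts are shown. They come from RefSeq promoter windows on GRCh38.p14, each of 250 bases before and 50 after a start, which were given for 7 of the 9 genes, in 9 windows. The printed part ends before the first base of any GENCODE v29 transcript of the gene. All are read 5′ to 3′ on the strand of the gene, and capitals mark matches to the motifs searched.
*ALAS1* lies on the plus strand (chr3:52197833-52198082), *CPOX* on the minus strand (chr3:98593724-98593861), *FECH* on the minus strand (chr18:57586773-57586952) and *ALAS2* on the minus strand (chrX:55031065-55031227).
ALAS1: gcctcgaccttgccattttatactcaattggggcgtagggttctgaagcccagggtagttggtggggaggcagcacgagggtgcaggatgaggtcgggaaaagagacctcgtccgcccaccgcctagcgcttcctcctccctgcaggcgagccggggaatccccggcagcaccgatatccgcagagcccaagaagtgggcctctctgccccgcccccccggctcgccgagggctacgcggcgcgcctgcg
CPOX: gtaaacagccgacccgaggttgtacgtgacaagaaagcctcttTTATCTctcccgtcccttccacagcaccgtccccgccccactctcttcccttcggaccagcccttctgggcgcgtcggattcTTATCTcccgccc
FECH: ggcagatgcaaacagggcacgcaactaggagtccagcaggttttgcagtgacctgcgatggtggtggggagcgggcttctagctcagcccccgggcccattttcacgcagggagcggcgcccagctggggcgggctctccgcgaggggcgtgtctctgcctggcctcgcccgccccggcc
ALAS2: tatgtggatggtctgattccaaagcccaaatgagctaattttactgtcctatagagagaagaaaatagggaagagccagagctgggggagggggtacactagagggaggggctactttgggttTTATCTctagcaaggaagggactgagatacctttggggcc

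The motifs were searched in the whole windows on both strands. For GATA factors the letters were AGATAA, or with another first base TGATAA. For the factors that bind CACCC boxes, KLF1 among them, they were CCACACCC or CCGCACCC. The erythroid factor NF-E2 was searched as TGAGTCA and the respiratory factor NRF1 as GCATGCGC. The cell cycle element CHR was searched as TTTGAA or, by its other form, TTCGAA. Sites of STAT factors were searched as TTCNNNGAA. The capitals in *CPOX* and *ALAS2* are GATA matches on the strand opposite to the gene, read here as TTATCT. In *CPOX* they began 207 and 125 bases before the RefSeq start, and in *ALAS2* 127 bases before it. A GATA match was present in windows of 3 of the 7 genes (*CPOX*, *ALAS2* and *PPOX*) and in 16.3% of all 35116 windows. The first count is per gene, over 9 windows of the 7 genes, and the share is per window, so the units differ. *ALAS2* also held an NF-E2 match 47 bases before its start, a motif found in 4.95% of windows. *ALAS1* held overlapping NRF1 matches on both strands from 22 bases after its start, against 3.05% of windows. In 1 window of *PPOX* a CACCC match lay 74 bases before the start (5.72% of windows) and a CHR match 172 bases before it (16.4% of windows). No match of these letters was found in the windows of *FECH*, *ALAD* or *UROD*, and none of the 7 genes held a STAT match (7.66% of windows). A match is a string of letters, not a measured binding site.

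Both clones together were compared with WT first. *ALAS1* and *CPOX* were lower in KO and *FECH* was higher, and the other 6 genes were not past the threshold. That is 3 of 9 genes, where 32.0% of all 17080 genes tested were past the threshold, 14.3% of them higher (1 of 9 here) and 17.7% lower (2 of 9 here). The share of heme synthesis genes that changed was thus close to that of all genes. KO and WT libraries did not overlap for the same 3 genes, against 36.6% of all genes. The median log2FC was −0.02 over the 9 genes and 0.02 over all genes tested.

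**Figure D1:**
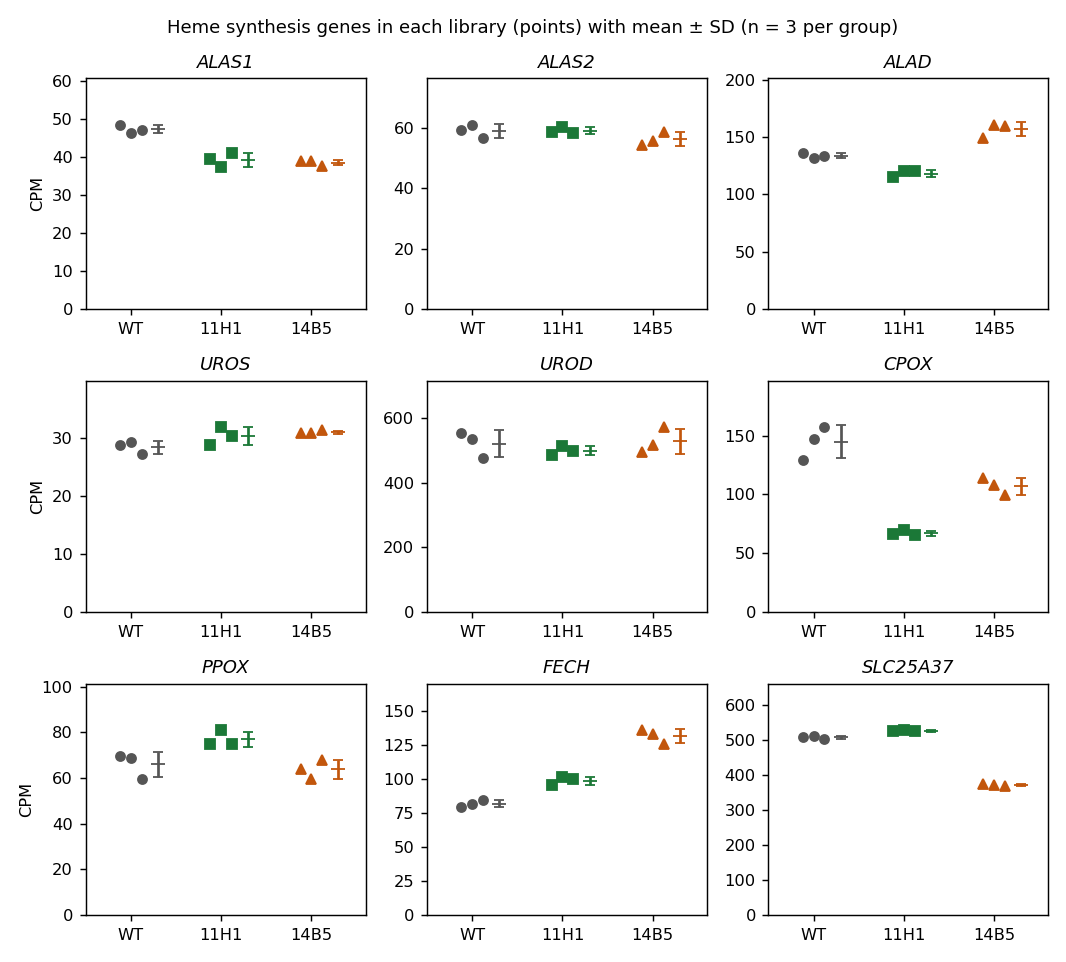
Level of each heme synthesis gene in CPM (vertical axes, each from 0) in the 3 WT, 3 11H1 and 3 14B5 libraries, shown as points, with the group mean and SD beside them. *ALAS1* and *CPOX* were lower and *FECH* higher in every KO library than in every WT library, while *ALAD* lay below WT in 11H1 and above it in 14B5.

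Taken in the order of the pathway, the aminolevulinate synthases come first. *ALAS1* (ENSG00000023330.15, chromosome 3 of GRCh38, 52198086 to 52214327, plus strand in GENCODE v29), the isoform used by most cells, was at 48.6, 46.5 and 47.2 CPM in WT, 39.6, 37.3 and 41.1 CPM in 11H1 and 39.0, 38.9 and 37.8 CPM in 14B5. Every KO library was below every WT library, and the clones overlapped. The log2FC was −0.28 in KO versus WT (SE 0.05, edgeR adjusted p = 0.00228), and a 2-sided exact permutation test over the 84 splits of 6 and 3 libraries gave p = 0.0119, the smallest it can give. Against WT it fell by 16.7% in 11H1 (95% interval 9.85 to 23.0%, edgeR adjusted p = 7.99e-04) and by 19.6% in 14B5 (13.6 to 25.2%, adjusted p = 2.81e-04). The difference between the clones was 0.04 (95% interval −0.07 to 0.14, edgeR adjusted p = 0.549). *ALAS1* was the only one of the 9 genes that was past the threshold against WT in both clones and not between them.

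*ALAS2* (ENSG00000158578.21, chromosome X, 55009055 to 55031064, minus strand), the erythroid isoform, was at 59.5, 61.2 and 56.6 CPM in WT, 58.8, 60.5 and 58.4 CPM in 11H1 and 54.4, 55.9 and 58.9 CPM in 14B5. The 3 groups overlapped. In KO versus WT the log2FC was −0.03 (SE 0.05, edgeR adjusted p = 0.684), with a 95% interval from −0.15 to 0.09. Neither clone was past the threshold, at 0.01 in 11H1 (edgeR adjusted p = 0.886) and −0.08 in 14B5 (adjusted p = 0.196). The interval of the KO difference thus ran from 10.1% lower to 6.34% higher.

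The ratio of the isoforms was taken within each library on CPM per kb of exon, since their transcripts differ in length. *ALAS2* was at 1.45, 1.56 and 1.43 times the level of *ALAS1* in WT, 1.76, 1.92 and 1.69 times in 11H1 and 1.66, 1.71 and 1.85 times in 14B5. All KO libraries were above all WT libraries, with *ALAS2* making up 58.8 to 61.0% of the summed level per kb of both in WT and 62.3 to 65.8% in KO. The ratio moved with *ALAS1*, whose level fell, rather than with *ALAS2*, whose difference was not past the threshold.

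*ALAD* (ENSG00000148218.16, chromosome 9, 113386317 to 113401333, minus strand), the cytosolic enzyme that makes porphobilinogen, was at 136, 132 and 134 CPM in WT, 115, 120.1 and 120.1 CPM in 11H1 and 149.7, 161 and 160.1 CPM in 14B5. The 3 groups did not overlap, with 11H1 below WT and 14B5 above it. The log2FC was −0.17 in 11H1 (SE 0.04, edgeR adjusted p = 0.00402) and 0.21 in 14B5 (SE 0.05, adjusted p = 0.00334). Pooling the clones left 0.04 (SE 0.12, edgeR adjusted p = 0.834). *ALAD* was the only one of the 9 genes past the threshold in opposite directions in the clones.

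The enzymes that follow, in the cytosol, showed smaller differences. *UROS* (ENSG00000188690.15, chromosome 10, 125784980 to 125823285, minus strand), which closes the ring, was at 27.2 to 29.3 CPM in WT, 28.7 to 31.8 CPM in 11H1 and 30.8 to 31.3 CPM in 14B5. The log2FC in KO was 0.11 (95% interval −0.02 to 0.24, edgeR adjusted p = 0.177). *UROD* (ENSG00000126088.14, chromosome 1, 45012147 to 45015575, plus strand), which decarboxylates the side chains, was at 476 to 555 CPM in WT, 487 to 515 CPM in 11H1 and 497 to 572 CPM in 14B5. Its log2FC in KO was −0.02 (95% interval −0.18 to 0.14, edgeR adjusted p = 0.850). For both genes no comparison passed the threshold, and only 14B5 and WT for *UROS* did not overlap. *UROD* passed it in 11H1 versus WT only without WT replicate 3 (−0.13, edgeR adjusted p = 0.0196), and between the clones only without 14B5 replicate 1 (−0.13, adjusted p = 0.0430).

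*CPOX* (ENSG00000080819.9, chromosome 3, 98579446 to 98593723, minus strand), which makes protoporphyrinogen in the intermembrane space, fell in both clones. It was at 129.7, 147 and 157 CPM in WT, 66.1, 69.6 and 65.2 CPM in 11H1 and 114, 108 and 99.8 CPM in 14B5. The 3 groups did not overlap, and the lowest WT library was 13.6% above the highest KO library. The log2FC was −0.73 in KO versus WT (SE 0.19, edgeR adjusted p = 0.0169, 2-sided exact permutation p = 0.0238). This pooled call was lost without WT replicate 2 (−0.71, edgeR adjusted p = 0.0643) and without WT replicate 3 (−0.67, adjusted p = 0.0734). Each clone alone was past the threshold under every alternative run, at −1.10 in 11H1 (SE 0.06, edgeR adjusted p = 4.14e-08), or 2.15 times lower than WT, and −0.44 in 14B5 (SE 0.07, adjusted p = 6.17e-04), or 1.36 times lower. The fall was larger in 11H1 by 0.67 on the log2 scale (SE 0.05, edgeR adjusted p = 7.93e-07).

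*PPOX* (ENSG00000143224.18, chromosome 1, 161166410 to 161178013, plus strand), which oxidises protoporphyrinogen to protoporphyrin, was at 69.8, 68.6 and 59.5 CPM in WT, 74.8, 80.9 and 75.1 CPM in 11H1 and 64.0, 59.7 and 68.0 CPM in 14B5. The 11H1 libraries lay above all others, and 14B5 overlapped WT. The log2FC was 0.23 in 11H1 (SE 0.06, edgeR adjusted p = 0.00796) and −0.06 in 14B5 (SE 0.07, adjusted p = 0.490). *PPOX* shares 6659 bases with *B4GALT3* on the opposite strand, and the sources differ on whether the libraries kept the strand, so its reads cannot be fully told apart from those of its neighbour.

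*FECH* (ENSG00000066926.11, chromosome 18, 57548283 to 57586772, minus strand), the iron-sulfur enzyme that makes heme from protoporphyrin and iron, rose in both clones. It was at 79.3, 82.1 and 84.6 CPM in WT, 95.8, 102 and 99.8 CPM in 11H1 and 136, 133 and 126 CPM in 14B5. The 3 groups did not overlap and lay in the order WT, 11H1, 14B5. The log2FC was 0.49 in KO versus WT (SE 0.13, edgeR adjusted p = 0.0140, 2-sided exact permutation p = 0.0238). This pooled call was lost without WT replicate 1 (0.46, edgeR adjusted p = 0.0601) and without WT replicate 2 (0.50, adjusted p = 0.0524). Each clone alone kept its call under every alternative run, with a rise of 21.3% in 11H1 (95% interval 13.2 to 29.9%, edgeR adjusted p = 1.93e-04) and of 58.7% in 14B5 (47.1 to 71.2%, adjusted p = 2.12e-06). The rise was smaller in 11H1 by 0.40 on the log2 scale (SE 0.05, edgeR adjusted p = 1.17e-05). Without WT replicate 2 *ALAS1* alone was past the threshold in the pooled comparison.

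*SLC25A37* (ENSG00000147454.14, chromosome 8, 23528805 to 23575463, plus strand), whose product mitoferrin 1 carries iron into the mitochondria of erythroid cells, was at 509.5, 511 and 503 CPM in WT, 525, 528 and 525 CPM in 11H1 and 375, 371 and 369 CPM in 14B5. The 14B5 libraries were far below the others, and the 11H1 libraries were above all WT libraries by a gap of 2.67%. The log2FC was −0.47 in 14B5 (SE 0.04, edgeR adjusted p = 9.86e-06), a fall of 27.6%, and 0.06 in 11H1 (95% interval −0.04 to 0.15, adjusted p = 0.260). Pooled, KO versus WT gave −0.18 (SE 0.14, edgeR adjusted p = 0.376), and a fit of WT and the clones as 3 groups, which takes the spread within groups only, gave −0.20 (adjusted p = 1.06e-04). The fall was thus in 14B5, and the clones differed by 0.51 (SE 0.04, edgeR adjusted p = 4.13e-07).

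Each clone set against WT alone gave 5 of 9 genes past the threshold. In 11H1 *PPOX* and *FECH* were higher and *ALAS1*, *ALAD* and *CPOX* lower, where 64.6% of 16675 genes were past the threshold, 31.8% higher and 32.8% lower. In 14B5 *ALAD* and *FECH* were higher and *ALAS1*, *CPOX* and *SLC25A37* lower, where 53.5% of 16537 genes were past it, 24.9% higher and 28.7% lower. The median log2FC of the 9 genes was 0.01 in 11H1 and −0.06 in 14B5, and that of all genes −0.01 in both. Both comparisons use the same WT libraries. Compared directly, the clones differed for 5 of 9 genes, with *PPOX* and *SLC25A37* higher in 11H1 and *ALAD*, *CPOX* and *FECH* lower. Of 16352 genes 63.7% differed, 31.6% higher and 32.1% lower in 11H1. In each of these comparisons the 5 of 9 genes stood near the share of all genes or below it.

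**Figure D2:**
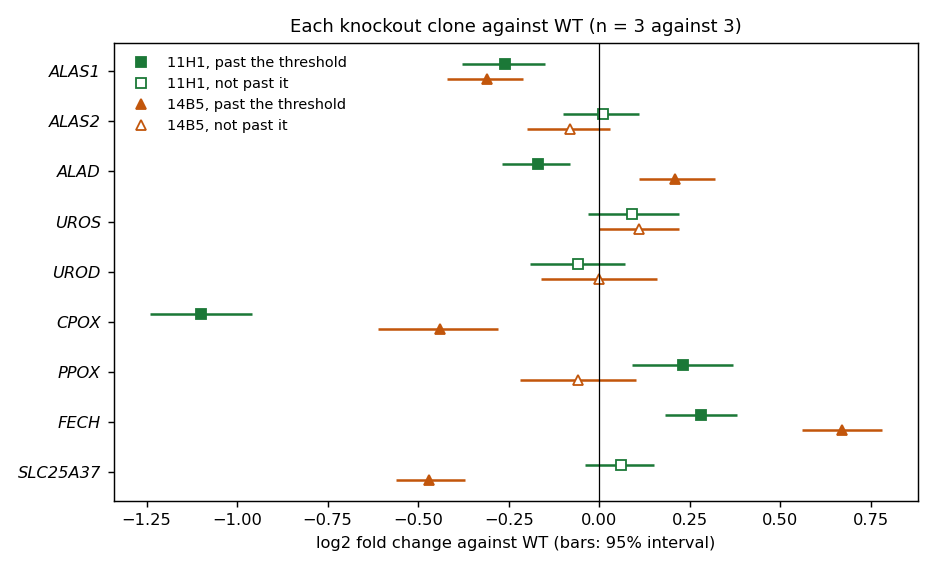
Difference of each clone from WT as log2 fold change (horizontal axis) for the 9 genes, with bars for 95% intervals and filled symbols for an adjusted p under the threshold. *CPOX* reached −1.10 in 11H1 and *FECH* 0.67 in 14B5, and *ALAD* is the one gene with filled symbols on both sides of 0.

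Levels can be set side by side between genes only per length, here as CPM per kb of merged exons. In WT the order was *UROD* (179.6 CPM per kb), *SLC25A37* (62.3), *CPOX* (44.7), *ALAS2* (27.7), *ALAD* (26.9), *ALAS1* (18.7), *FECH* (18.3), *PPOX* (14.3) and *UROS* (2.98). Neighbours in this order did not overlap, with the exceptions of *ALAS2* with *ALAD* and *ALAS1* with *FECH*. *UROD* and *SLC25A37* led and *UROS* came last in all 3 groups. *CPOX* went from rank 3 in WT to rank 6 in 11H1 (20.7 CPM per kb), just under *FECH* (22.1), with libraries that overlapped. In 14B5 *CPOX* (33.2), *ALAD* (31.5) and *FECH* (29.4) followed each other, and each overlapped the next. With the length of the longest coding transcript in place of merged exons, *PPOX* was at rank 5 in WT (37.9 CPM per kb) and at rank 3 in 11H1 (44.2), so its place depends on the length used.

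**Figure D3:**
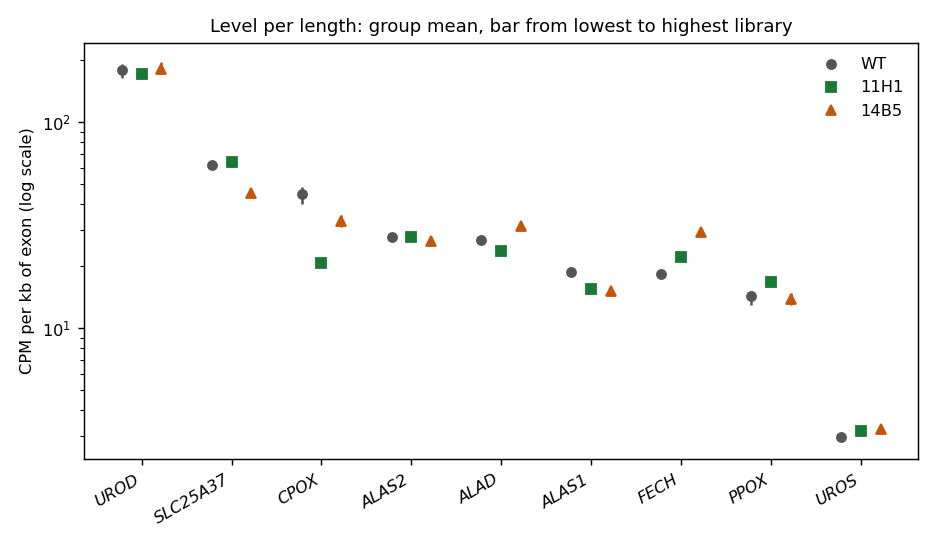
Level of each gene as CPM per kb of merged exons (vertical log axis), ordered by the WT mean, with symbols for group means and bars from the lowest to the highest library (n = 3 per group). *UROD* leads in each group, and the symbols of *CPOX* and *FECH* draw together in the clones.

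*FECH* and *CPOX*, which moved in opposite directions, were also set against each other within each library, on CPM per kb. The ratio of *FECH* to *CPOX* was 0.442, 0.403 and 0.390 in WT, 1.05, 1.05 and 1.10 in 11H1 and 0.861, 0.887 and 0.911 in 14B5. The 3 groups did not overlap, and *FECH* exceeded *CPOX* in every 11H1 library and in no other. The mean was 0.412 ± 0.0271 (SD, n = 3) in WT, 1.07 ± 0.0289 in 11H1 and 0.886 ± 0.0250 in 14B5. Since both genes were already known to differ, this ratio is a description.

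**Figure D4:**
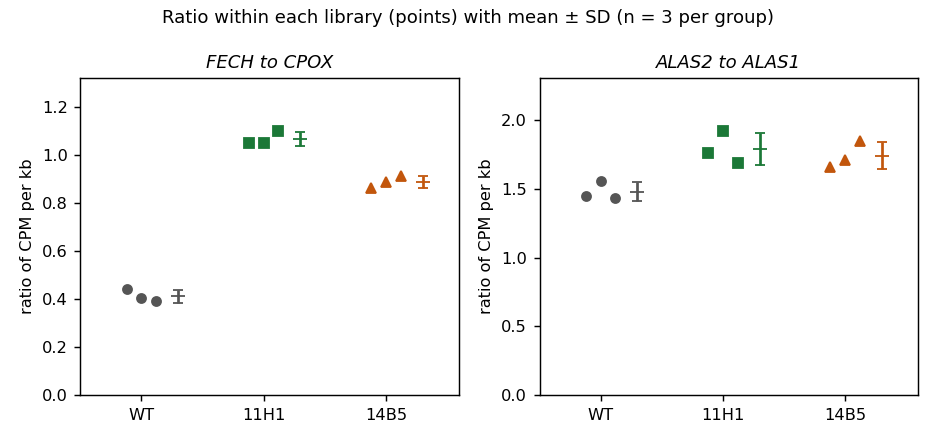
Ratio of *FECH* to *CPOX* (left) and of *ALAS2* to *ALAS1* (right) in each library, from CPM per kb of merged exons, with group mean and SD (n = 3 per group). Both ratios lie higher in all KO libraries than in all WT libraries, the first from 0.861 to 1.10 against at most 0.442.

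*ALAS2* and *SLC25A37*, the erythroid members, were also compared with all other genes by the Euclidean distance of their log2 CPM less the WT mean over the 9 libraries. Among the nearest of 13581 genes to *ALAS2* were *TRIM28* (distance 0.10) and *DRG2* (0.11). The nearest to *SLC25A37* were *AGO1* (0.12), *C19orf54* (0.13) and *IGF1R* (0.14). Only the 3 nearest genes of each were looked at, and no other heme synthesis gene was among them. So short a list cannot show whether these genes vary with the rest of the pathway. Genes within 2500000 bases on either side of each gene were counted too, a window chosen after the data were seen. The shares of all genes in these comparisons were 31.8% higher and 32.8% lower in 11H1, and 24.9% higher and 28.7% lower in 14B5. Near *SLC25A37*, 26 of 42 tested genes were lower in 14B5 and 4 higher, and in 11H1, where *SLC25A37* was not lower, 20 of 42 were lower and 8 higher. Near *CPOX*, 8 of 19 were lower and 2 higher in 11H1, and 7 were lower and 5 higher in 14B5. Near *FECH*, 1 of 14 was higher and 7 lower in 11H1, and 2 were higher and 3 lower in 14B5. Uneven counts were also seen near genes that were not past the threshold themselves. Near *ALAS2*, 20 of 31 were higher and 4 lower in 11H1, and 10 of 32 were higher and 8 lower in 14B5. Near *PPOX* in 14B5, 35 of 72 were lower and 14 higher. The part of the neighbourhood in the changes of these genes was not tested.

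The genes around the pathway were described by lists written from general knowledge. In KO versus WT 14.3% of all 17080 genes tested rose and 17.7% fell. Among 9 genes of substrate supply, 2 rose and none fell in KO versus WT, with a median log2FC of −0.02. They were *SLC25A38*, the mitochondrial glycine carrier (0.32, SE 0.07, edgeR adjusted p = 0.00591), and *SHMT1*, a cytosolic enzyme of glycine metabolism (0.22, adjusted p = 0.0317). The call of *SHMT1* was lost without WT replicate 1, 2 or 3 or 14B5 replicate 2 (edgeR adjusted p from 0.0519 to 0.113). In 11H1 alone 6 of the 9 fell and 2 rose, where 32.8% of all genes fell and 31.8% rose. In 14B5 none fell and 4 rose, where 28.7% of all genes fell and 24.9% rose.

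Of 11 genes of porphyrin and heme transport 10 were tested in KO versus WT, of which 2 rose and 1 fell (median 0.08). Among all genes tested 14.3% rose and 17.7% fell. *SLC25A39*, a mitochondrial glutathione carrier, rose by 0.42 (edgeR adjusted p = 0.00394). *ABCG2*, a porphyrin exporter at low level here (4.05 CPM in WT), fell by 1.51 on the log2 scale (edgeR adjusted p = 2.85e-05). *FLVCR1*, described as a heme exporter, rose by 0.33 (edgeR adjusted p = 0.0435), a call lost without any 1 of the WT or 11H1 replicates (adjusted p from 0.0705 to 0.129). *TMEM14C*, needed for the entry of protoporphyrinogen into mitochondria, was at 156, 157 and 148 CPM in WT, 79.6, 96.1 and 101 CPM in 11H1 and 130, 135 and 143 CPM in 14B5. All KO libraries were below all WT libraries, with the lowest in 11H1, as for *CPOX*, the enzyme just before this step. *TMEM14C* fell by 0.74 on the log2 scale in 11H1 (edgeR adjusted p = 3.25e-06) and by 0.19 in 14B5 (adjusted p = 0.00863), the latter lost without 14B5 replicate 1 (adjusted p = 0.0510) and in the fit of 3 groups (0.0521). Pooled it missed the threshold (−0.43, edgeR adjusted p = 0.0776), though it passed without 14B5 replicate 3 (−0.50, adjusted p = 0.0377) in the DESeq2 Wald test (−0.44, adjusted p = 0.0450) and in the fit of 3 groups (−0.46, adjusted p = 3.08e-05). *ABCB10*, a partner of mitoferrin 1 in the inner membrane, was at 104 ± 9.85 CPM in WT, 104 ± 1.46 in 11H1 and 158 ± 5.93 in 14B5 (SD, n = 3 each). It rose in 14B5 (0.59, edgeR adjusted p = 4.41e-05), the clone in which *SLC25A37* fell, and was at 0.01 in 11H1 (adjusted p = 0.936). *SLC25A28*, the paralog mitoferrin 2, rose in 11H1 (0.33, edgeR adjusted p = 0.00670) and was at −0.01 in 14B5 (adjusted p = 0.965).

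*HMOX1*, the inducible heme oxygenase that opens heme breakdown, was at 77.5, 80.4 and 73.6 CPM in WT, 21.1, 20.4 and 18.8 CPM in 11H1 and 28.3, 29.9 and 24.4 CPM in 14B5. All KO libraries lay well under all WT libraries, and the log2FC was −1.69 in KO (SE 0.14, edgeR adjusted p = 1.45e-05), −1.93 in 11H1 (adjusted p = 2.85e-10) and −1.50 in 14B5 (adjusted p = 1.27e-07). *HMOX2*, the constitutive oxygenase, was at −0.22 in KO (edgeR adjusted p = 0.0307), a call lost without WT replicate 1, WT replicate 2 or 11H1 replicate 2 (adjusted p from 0.0566 to 0.146). These were the 2 of 4 breakdown genes that fell in KO, and none rose, where 17.7% of all genes fell and 14.3% rose.

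Of 14 genes of iron uptake and storage 1 rose and 3 fell in KO (median 0.05). Among all genes tested 14.3% rose and 17.7% fell. *SLC11A2*, an iron importer, rose by 0.41 (edgeR adjusted p = 1.97e-04). *NCOA4*, the receptor that delivers ferritin to lysosomes, fell by 0.60 (edgeR adjusted p = 3.33e-04), and *SLC40A1*, the iron exporter ferroportin, fell by 0.47 (adjusted p = 2.34e-04). *TFRC*, the transferrin receptor, was at 1924 ± 131 CPM in WT, 1856 ± 26.2 in 11H1 and 2108 ± 91.7 in 14B5 (SD, n = 3 each), past the threshold in neither clone. In 14B5 *TFRC* passed without WT replicate 3 (0.19, edgeR adjusted p = 0.0139) and in the fit of 3 groups (0.13, adjusted p = 0.0424). The ferritin chains *FTH1* and *FTL* rose in 14B5, by 0.42 (edgeR adjusted p = 5.97e-05) and 0.25 (adjusted p = 0.00342). In 11H1 *FTH1* was at 0.06 (edgeR adjusted p = 0.250) and *FTL* at −0.12 (adjusted p = 0.0761). *FTL* in 11H1 passed the threshold without WT replicate 3 (−0.17, edgeR adjusted p = 0.00581), with no filter on low counts (0.0189), in the fit of 3 groups (0.0406) and in the DESeq2 Wald test (0.0483).

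Of 18 regulators of heme synthesis 17 were tested in KO, of which 4 rose and 1 fell (median 0.05). Among all genes tested 14.3% rose and 17.7% fell. *TAL1*, an erythroid and megakaryocytic factor, rose by 0.40 (edgeR adjusted p = 4.51e-04), and *ZFPM1*, a partner of GATA1, rose by 0.37 (adjusted p = 0.00612). *LONP1*, a mitochondrial protease, fell by 0.25 (edgeR adjusted p = 0.00664). *KLF1*, the erythroid factor that binds CACCC motifs, moved in opposite directions, as *ALAD* did. It fell by 0.28 in 11H1 (edgeR adjusted p = 0.00342), rose by 0.26 in 14B5 (adjusted p = 0.00912) and was at 0.02 pooled. *GATA1* fell by 0.18 in 11H1 (edgeR adjusted p = 0.0104), a call lost without 11H1 replicate 3 (−0.13, adjusted p = 0.0586), and was at 0.03 in 14B5 (adjusted p = 0.611). *CLPX*, the mitochondrial unfoldase that acts on aminolevulinate synthase, fell by 0.33 in 11H1 (edgeR adjusted p = 8.30e-05) and was at −0.06 in 14B5 (adjusted p = 0.360).

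**Figure D5:**
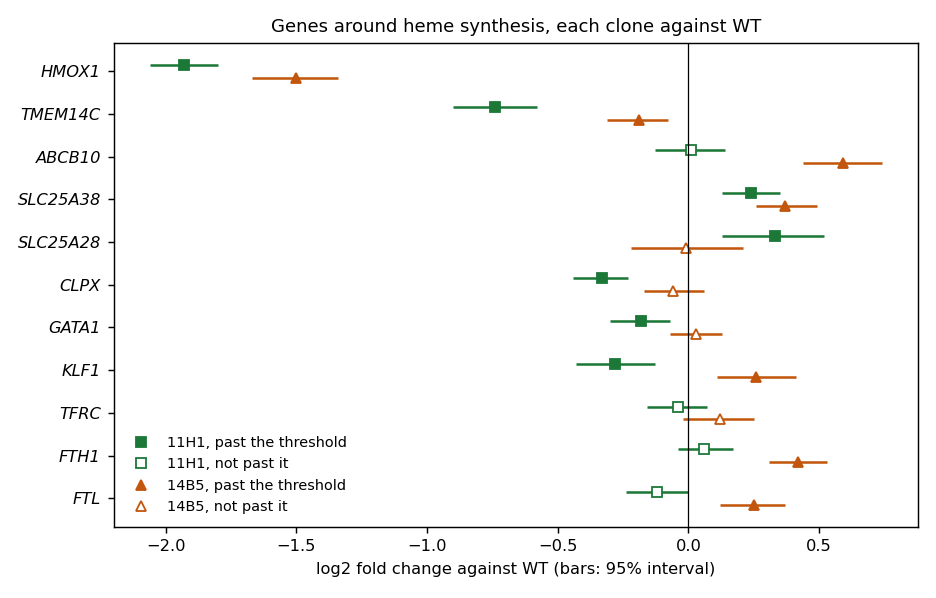
Difference of each clone from WT as log2 fold change (horizontal axis) for 11 genes of heme breakdown, transport, regulation and iron handling, with bars for 95% intervals and filled symbols for an adjusted p under the threshold. *HMOX1* lies furthest from 0, at −1.93 and −1.50, and *KLF1* has filled symbols on both sides of 0.

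Markers of cell types moved beside these genes. The counts below stand against all genes tested in KO versus WT, of which 14.3% rose and 17.7% fell. Of 12 megakaryocyte genes 11 were tested in KO versus WT, and 10 fell and none rose, led by *GP9* (−3.16, edgeR adjusted p = 0.00250) and *ITGB3* (−2.08, adjusted p = 0.00698), a platelet glycoprotein and an integrin. Their summed level was 1131 to 1138 CPM in WT, 758 to 782 in 11H1 and 673 to 695 in 14B5, with 7 of the 12 at a mean over all 9 libraries of 1 CPM or more and none at 0 in every library. *PF4*, *PPBP* and *VWF*, among the defining genes of mature megakaryocytes, had means below 1 CPM in WT and in both clones. Of 12 erythroid genes 5 rose and 2 fell, with *SLC4A1* (2.05, edgeR adjusted p = 2.31e-05) and *EPOR* (0.99, adjusted p = 8.68e-06) highest. *RHCE*, a blood group gene with a close paralog between which counting could split reads, was among those that fell (−1.62, adjusted p = 6.28e-05). The erythroid sum was 1295 to 1369 CPM in WT, 1648 to 1735 in 11H1 and 1409 to 1475 in 14B5, with none of the 12 at 0 in every library. Monocyte and granulocyte genes summed to 264 to 271 CPM in WT and 128 to 147 in KO. Of these 10 genes 6 were tested, 4 fell, among them *ITGAM* (−1.53, edgeR adjusted p = 1.76e-06) and *LYZ* (−0.82, adjusted p = 1.53e-05), 1 rose, and *S100A8* was at 0 in every library. Lymphocyte genes summed to 57.7 to 66.4 CPM in WT and 41.7 to 49.6 in KO, with 3 of 5 tested lower, among them *CD79A* (−0.66, edgeR adjusted p = 0.00330) and *CD79B* (−0.48, adjusted p = 0.00653), and none of the 8 at 0 in every library. The part of these lineage genes in the results for heme synthesis was not tested.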

How the data were processed

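For 9 libraries the authors deposited the expected counts of RSEM, 1 value per gene, made per the submitters' processing notes with STAR 2.7.9a, Picard and RSEM on GRCh38, without normalization for depth or length. All 81 values of the 9 heme synthesis genes were whole. The paper describes stranded mRNA libraries, while the labels name another kit. The paper gives 5 KO libraries and 6 were deposited; all 6 were used. The 92 spike-in rows were at 0 in every library and left out, and no column of values was left out.

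Expected counts were rounded and tested with edgeR 4.0.16 in R 4.3.3 (TMM, filterByExpr, quasi-likelihood F test, Benjamini-Hochberg adjustment over all genes tested, threshold 0.05). KO was compared with WT, then each clone with WT and with the other clone. Intervals of differences are 95%. For 3 libraries against 3 an exact permutation test cannot go below 0.1, so none is given. Lengths and positions came from GENCODE v29, matched by identifier without version for 96.5% of genes. Intervals cover the spread between libraries, which in the pooled comparison includes the difference between the clones. A count of 0 would allow up to 3 counts, for counting error only.

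The 9 genes, the lists and the tests were chosen with earlier results of these data known. Named from each list were up to 2 genes with the largest rise and fall past the threshold in KO versus WT at a mean of at least 1 CPM, and 11 genes chosen for their role in the pathway. Genes that this rule covers but the text does not name are not reported here. Alternatives were DESeq2 1.42.0 size factors and Wald test, limma-voom (limma 3.58.1) on unrounded values, 2 other filters on low counts, protein-coding genes only, a replicate block, a fit of 3 groups, another transcript length and each library left out. The fits were first tested on simulated data in which 200 genes were changed alike in both clones. Change in a large share of genes, and clones that differ from each other, were not simulated. No library was a copy of another.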

Additional observations from a re-analysis of the deposited data

Results flagged for a closer look

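For 5 of the 9 heme synthesis genes the difference from WT was not the same in the clones, by edgeR's test of 11H1 against 14B5. The log2FC of 11H1 minus 14B5 was −0.40 for *ALAD*, −0.67 for *CPOX*, 0.27 for *PPOX*, −0.40 for *FECH* and 0.51 for *SLC25A37*. *ALAD* lay on opposite sides of WT in the clones. *CPOX* was lower and *FECH* higher than WT in both, by different amounts. *PPOX* was past the threshold against WT in 11H1 alone and *SLC25A37* in 14B5 alone.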

How the results depend on the processing

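Over 531 alternatives for single heme synthesis genes, 506 kept direction and side of the threshold, 4 lost a call, 4 gained one and 17 changed sign. In KO versus WT the number of genes past the threshold was 3, and from 1 to 3 when a library was left out, with 1 (*ALAS1*) without WT replicate 2; a fit of 3 groups gave 4. In 11H1 versus WT it was 5 to 6, in 14B5 versus WT 5 throughout, and between the clones 5 to 6, with *ALAS2* gained among protein-coding genes only (0.12, edgeR adjusted p = 0.0422). Same-numbered libraries correlated between −0.145 and 0.058 in their deviations from the group means, so the numbers do not pair them. With the replicate number as a block the counts were 3, 5, 5 and 5, and the calls of *CYC1* (−0.44, edgeR adjusted p = 0.0840), *FLVCR1* (0.33, 0.0985), *HMOX2* (−0.22, 0.0832) and *SHMT1* (0.22, 0.0791) were lost. The *FLVCR1* call was also lost in limma-voom (0.31), with at least 10 counts in every library (0.31) and among protein-coding genes only (0.32), and those of *CYC1* (−0.44), *HMOX2* (−0.21) and *SHMT1* (0.22) with no filter.

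Signs changed only for differences not past the threshold. With a library left out, the log2FC in KO versus WT ran from −0.06 to 0.00 for *ALAS2*, −0.01 to 0.09 for *ALAD*, −0.08 to 0.02 for *UROD* and −0.05 to 0.10 for *KLF1*. In 11H1 versus WT it ran from −0.03 to 0.03 for *ALAS2*, −0.07 to 0.07 for *ABCB10* and −0.09 to 0.01 for *TFRC*. In 14B5 versus WT it ran from −0.05 to 0.06 for *UROD*, −0.12 to 0.00 for *PPOX* and −0.08 to 0.11 for *SLC25A28*, and between the clones from 0.00 to 0.07 for *ALAS1* and −0.07 to 0.01 for *UROS*. *KLF1* in KO was at −0.01 in limma-voom, 0.00 with at least 10 counts in every library and −0.01 in the fit of 3 groups. Against WT in 11H1, *ALAS2* was at −0.01 with no filter and 0.00 with at least 10 counts, and *ABCB10* at −0.02 and 0.00 in these and 0.00 in the fit of 3 groups. In 14B5, *UROD* was at −0.02 with at least 10 counts and −0.01 among protein-coding genes. There *SLC25A28* was at 0.01 with DESeq2 size factors, the DESeq2 Wald test and the fit of 3 groups, 0.03 with no filter and 0.00 with the block. *UROS* between the clones was at 0.01 among protein-coding genes. The cause of these changes was not tested.

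Depth did not limit these genes. The limits are 2 clones, each from 1 cell, a strand setting the sources do not settle, and levels per length that move with the transcript length chosen.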

Other observations

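Genes that use or assemble heme and iron-sulfur clusters were counted as well. Of 9 genes of hemoproteins and their assembly 1 rose and 2 fell in KO versus WT (median log2FC 0.05, against 0.02 over all genes tested). Among all genes tested 14.3% rose and 17.7% fell. *CYB5A*, cytochrome b5, rose by 0.43 (edgeR adjusted p = 0.00718), and *CYBA*, the light chain of the phagocyte cytochrome b, fell by 0.74 (adjusted p = 1.59e-04). *CYC1*, the respiratory cytochrome c1, fell by 0.44 (edgeR adjusted p = 0.0377), a call lost without WT replicate 1, 2 or 3 or 11H1 replicate 1 or 2 (adjusted p from 0.0536 to 0.152). Between the clones 8 of the 9 were lower in 11H1 and none higher, with a median of −0.23, against 0.00 over all genes, of which 32.1% were lower and 31.6% higher.

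Of 14 genes of iron-sulfur cluster assembly 1 rose and 1 fell in KO versus WT, where 14.3% of all genes rose and 17.7% fell. *FDX2*, the mitochondrial ferredoxin of this pathway, rose by 0.57 (edgeR adjusted p = 0.00413), and *HSPA9*, the mitochondrial chaperone that hands on the clusters, fell by 0.49 (adjusted p = 6.76e-05). In 11H1 versus WT 7 fell and 3 rose, where 32.8% of all genes fell and 31.8% rose. In 14B5 versus WT 2 fell and 5 rose, where 28.7% of all genes fell and 24.9% rose. Compared directly, 11 were lower and 2 higher in 11H1 than in 14B5 (median −0.30), where 32.1% of all genes were lower and 31.6% higher. Other lists leaned the same way. In iron uptake and storage 12 of 14 were lower and 0 higher, in substrate supply 6 of 9 and 0, and in porphyrin and heme transport 6 of 11 and 2. Erythroid genes (7 of 12) and megakaryocyte genes (7 of 9 tested) were higher in 11H1, with 0 lower in either list. The share of mitochondrially encoded counts was higher in 11H1 (7.23% to 7.39%) than in 14B5 (3.30% to 3.92%), and its part in these differences was not tested.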
